A study of Mus musculus with 18 samples.

Results

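The comparison described here set mouse mammary organoids that lack RasGRP1 (KO, RasGRP1-/-) against wild-type organoids (WT), both kept in medium whose added growth factor was EGF alone. Glands came from C57BL/6 mice of 6 to 7 weeks, and organoids of both genotypes grew in matrigel pellets. Their base medium was DMEM/F12 supplemented with selenium, transferrin and insulin. Both groups received 2.5 nM EGF for 5 days. KO_EGF had 3 libraries and WT_EGF had 3 libraries, 1 of each genotype in each of 3 batches. The tests were fitted over the libraries of all media, with a common estimate of each gene's spread and of the batch effects. Otherwise the study's other media were used only to show where EGF medium differed from them and where it did not. These were ERW, which added Rspo2 at 8.3 nM and NGS-Wnt at 0.1 nM to the same EGF, and RW, with this Rspo2 and NGS-Wnt but no EGF, each with 3 KO and 3 WT libraries, which makes 18 libraries in all. Of 55536 genes in the deposited count table, 17092 had enough counts to be tested, and all of these were compared. Genes whose body lay within 10 Mb of Rasgrp1 on chromosome 2 are given apart from the rest. The labels name no conditional allele or Cre driver. They do not state which exons were deleted, whether KO and WT mice were littermates or of separate colonies, or how many mice stand behind a library. The p-values therefore measure the spread between these libraries.

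RasGRP1 is a guanine nucleotide exchange factor, a protein that loads Ras with GTP, and it is switched on by diacylglycerol and calcium. It is known best from lymphocytes, where it carries antigen receptor signals to Ras. The EGF receptor uses another exchange factor, SOS, which adaptor proteins bring to the membrane. GTP-loaded Ras then starts the RAF, MEK and ERK kinase cascade, whose nuclear output includes immediate early genes and the feedback inhibitors of the DUSP, SPRY and SPRED families. In the mammary gland, amphiregulin and the EGF receptor are needed for the growth of ducts at puberty.

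Total counts were 24290097, 25381986 and 29978161 in the KO_EGF libraries and 29682509, 29715771 and 31269899 in the WT_EGF libraries. The 6 libraries each detected 19330 to 21321 genes, with 1.41% to 2.10% of counts from mitochondrial genes. Over these libraries, batch accounted for 62.69% of the variance in log2 CPM, the counts of a gene relative to all counts of its library. Genotype accounted for 13.08% on 1 degree of freedom. The remainder held 24.23% on 2 degrees of freedom, as many as batch had. Epithelial markers were abundant in both genotypes. Epcam, an adhesion protein of epithelia, averaged 1063 ± 115 CPM in KO and 1033 ± 81.6 CPM in WT (SD, n = 3 each). The basal keratin gene Krt14 averaged 1553 ± 484 CPM in KO and 1453 ± 149 CPM in WT. Markers of fibroblasts, vessels and fat were also present, and only 4 of 17 lymphocyte markers had enough counts to be tested. Values of n are 3 libraries a group throughout, errors of CPM are SDs, and log2 differences are KO over WT with their standard errors.

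Few genes differed between KO and WT organoids in EGF medium. By edgeR's quasi-likelihood test with batch as a block and Benjamini-Hochberg adjustment over all tested genes, 12 of 17092 genes passed an adjusted p of 0.05 (0.0702%), and these are the genes called here. Of these 12, 9 were higher in KO (0.0527%) and 3 were lower in KO (0.0176%). At an unadjusted p of 0.05 there were 557 genes (3.26%), of which 293 were higher in KO (1.71%) and 264 lower (1.54%). The 12 called genes fell into a small set of kinds. A group of 5 lay within 10 Mb of Rasgrp1, and the other 7 included Ide and Wdfy1, which are known to vary between C57BL/6 colonies, and several copies of genes on chromosome 2. No called gene was a component or a known target of the EGF receptor pathway among the lists described below. Among the 9914 genes with a mean of at least 10 CPM over the 6 libraries, the median standard error of the log2 difference was 0.11. The 95% interval lay within a change of 1 on the log2 scale for 98.2% of these genes.

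**Figure D1:**
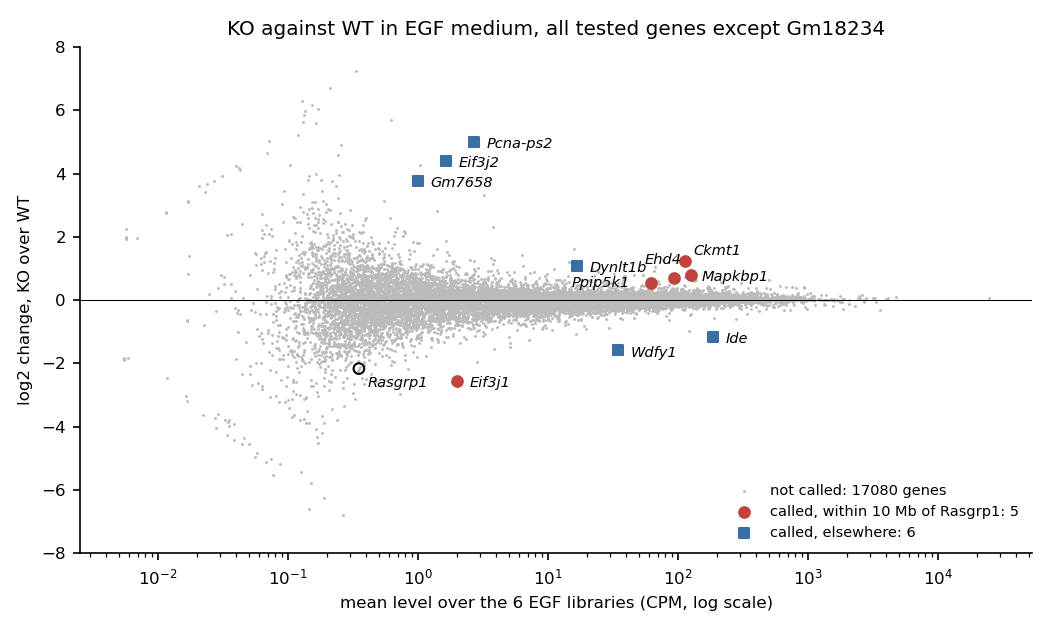
Log2 difference of KO over WT in EGF medium (vertical axis) against mean level over the 6 libraries in CPM (horizontal axis, log scale), 1 point for each of 17091 tested genes. Red circles are the 5 called genes within 10 Mb of Rasgrp1, blue squares are called genes elsewhere, the open circle is Rasgrp1, and Gm18234 is not drawn because it had no counts in WT. Called genes lie on both sides of 0, some uncalled genes lie as far from 0 at the same level, and 5 of the 12 had means under 5 CPM.

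Rasgrp1 itself was close to the limit of detection in both genotypes. It is annotated at chr2:117279993-117343001 (GRCm38, minus strand). Its counts were 0, 6 and 4 in KO_EGF replicates 1 to 3, against 15, 15 and 21 in WT_EGF replicates 1 to 3, and the groups did not overlap. In CPM it averaged 0.132 ± 0.129 in KO and 0.572 ± 0.101 in WT. The log2 difference was -2.16 ± 1.22, which did not pass the test (unadjusted p = 0.0882, adjusted p = 1). Without KO_EGF replicate 2, the KO library with 6 counts, the log2 difference was -3.98 and also missed the threshold after adjustment. In ERW medium the counts were 0, 0 and 6 in KO against 7, 6 and 18 in WT, and in RW medium 0, 0 and 9 in KO against 28, 10 and 25 in WT. In RW medium the KO library with 9 counts came from batch 3. Since the labels do not give the deleted exons, counts from parts of the gene that a KO allele may still transcribe cannot be told apart from other sources.

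Other exchange factors for Ras did not pass the test. Rasgrp2 and Rasgrp3, the family members that were also tested, averaged 3.59 ± 1.95 and 9.74 ± 1.69 CPM in KO, against 2.76 ± 0.646 and 10.8 ± 2.85 CPM in WT. Their log2 differences were 0.29 ± 0.32 for Rasgrp2 and -0.12 ± 0.23 for Rasgrp3. Rasgrp4 had too few counts to be tested. Sos1, one of the exchange factors that the EGF receptor engages, averaged 65.7 ± 15 CPM in KO and 69.9 ± 14.6 CPM in WT, a log2 difference of -0.09 ± 0.08. Its paralogue Sos2 had a log2 difference of 0.06 ± 0.08. Rasgrf1, a calcium-responsive exchange factor, had one of -0.34 ± 0.19.

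Within 10 Mb of Rasgrp1, 162 other genes were tested and 5 were called, against 0.0702% over all tested genes. Ckmt1, Mapkbp1, Ehd4 and Ppip5k1 rose in KO and Eif3j1 fell. Ckmt1 (chr2:121357714-121363737), the mitochondrial creatine kinase, had 169.3, 144.0 and 166.2 CPM in KO replicates 1 to 3, against 61.9, 58.4 and 83.9 CPM in WT replicates 1 to 3. Every KO library was above every WT library, and the log2 difference of 1.24 ± 0.11 (2.37-fold, adjusted p = 2.68e-05) was the largest rise among these genes. Mapkbp1, a scaffold protein that binds the kinase JNK, had 175.1, 167.1 and 143.4 CPM in KO, against 96.0, 94.5 and 87.1 CPM in WT. The groups were again apart, with a log2 difference of 0.80 ± 0.09 (adjusted p = 1.40e-04). Ehd4, an ATPase that shapes endosomal membranes, had 87.3, 123.7 and 133.3 CPM in KO, against 56.1, 68.8 and 87.0 CPM in WT. The lowest KO library and the highest WT library nearly met, since both genotypes varied with batch, and within every batch KO was higher (log2 difference 0.70 ± 0.09, adjusted p = 0.00105). Ppip5k1, a kinase that makes inositol pyrophosphates and lies next to Ckmt1, averaged 73.9 ± 6.33 CPM in KO and 50.8 ± 5.18 CPM in WT (log2 difference 0.55 ± 0.10, adjusted p = 0.0458). Its call was lost when any of KO_EGF replicates 1 and 2 or the 3 WT libraries was left out, with adjusted p of 0.204 to 0.433. Without the replicate block only Ckmt1 and Mapkbp1 of these 5 genes kept their calls, and without WT_EGF replicate 1, or without WT_EGF replicate 2, 3 genes within 10 Mb were called.

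Eif3j1, which encodes subunit J of the translation initiation factor eIF3, was the called gene of this region that fell. It had 0.288, 1.07 and 0.481 CPM in KO, against 2.88, 4.17 and 3.11 CPM in WT (log2 difference -2.54 ± 0.40, adjusted p = 0.0119). The groups did not overlap, but the counts were few, and the call was lost when either KO_EGF replicate 1 (adjusted p = 0.144) or KO_EGF replicate 3 (adjusted p = 0.126) was left out, and without any single WT_EGF library (adjusted p of 0.0544 to 0.0602). Of all stretches of 50 bases in Eif3j1 transcripts, 36.6% also occur in Eif3j2, described further on, so the value of Eif3j1 is uncertain.

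**Figure D2:**
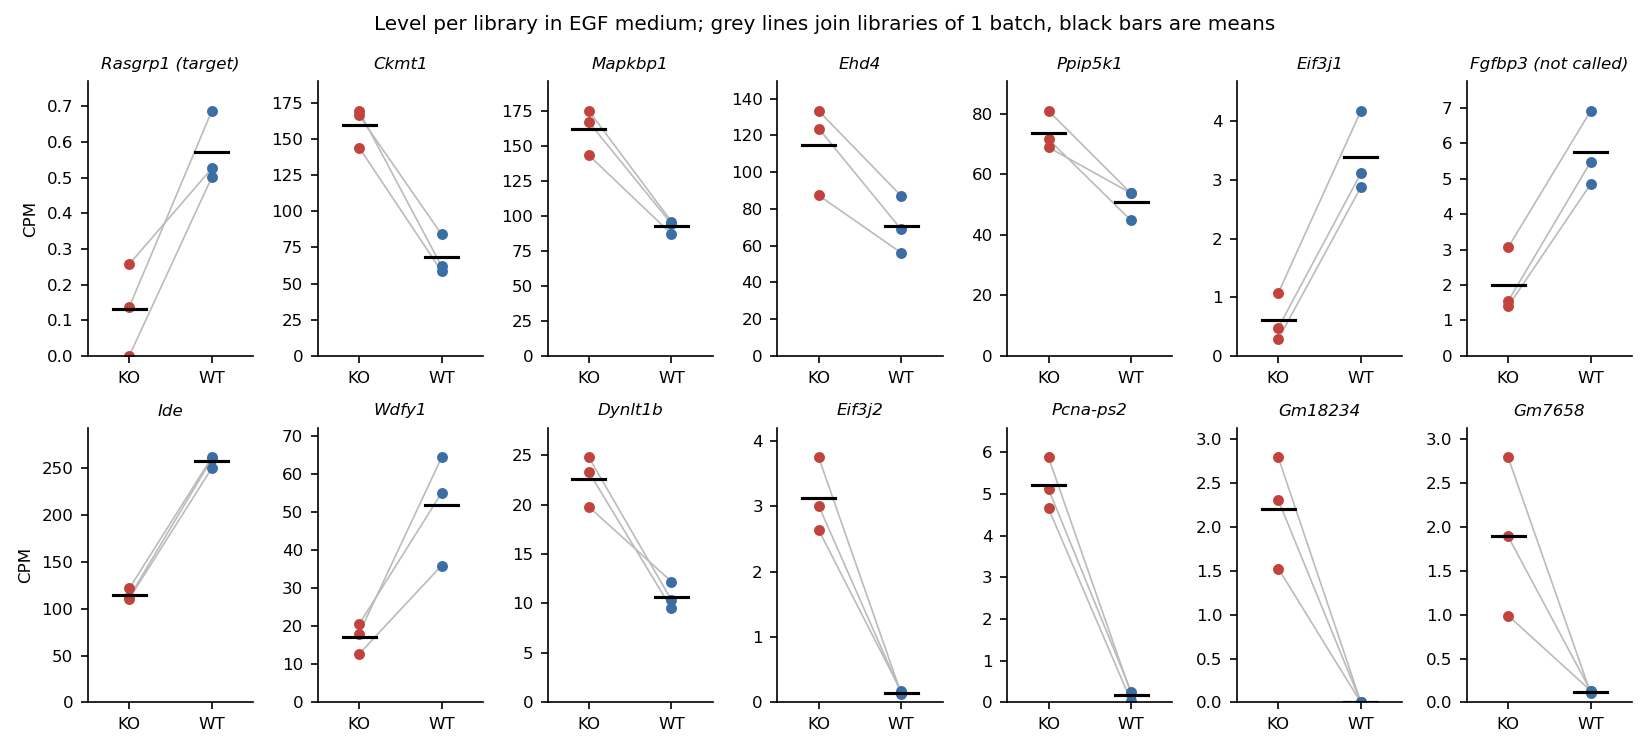
Level in CPM (vertical axis, linear, each panel with its own scale) of Rasgrp1, the 12 called genes and Fgfbp3 in each EGF library, KO left of WT. Points are libraries, grey lines join the KO and WT libraries of 1 batch, and black bars are group means. No panel has a KO library within the WT range, and Ide was at 110.9 to 121.7 CPM in KO and 250.3 to 261.7 CPM in WT.

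Smaller differences were frequent along the same stretch of chromosome 2. At an unadjusted p of 0.05, 38 of 162 genes within 10 Mb of Rasgrp1 differed (23.5%), against 3.26% of all tested genes, and these were split between 20 higher and 18 lower in KO. The share was 28.3% within 5 Mb (32 of 113 genes), 12.2% from 5 to 10 Mb (6 of 49) and 13.9% from 10 to 20 Mb (19 of 137). Beyond 20 Mb on chromosome 2 it was 2.91% (29 of 998), and over genes outside chromosome 2 it was 2.98% (471 of 15794). The median size of the log2 difference, whatever its sign, was 0.206 within 10 Mb and 0.121 over all tested genes. A group of 18 of the 162 nearby genes (11.1%) was under an unadjusted p of 0.05 in all 3 media, all in the same direction, against 46 of 15794 genes (0.291%) outside chromosome 2.

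Some uncalled genes of this stretch are named here after their values were seen. Of these, Spint1, Duoxa1 and Sirpa came close to the threshold. Spint1, which encodes a membrane-bound inhibitor of the proteases that activate hepatocyte growth factor, had 249.9, 309.9 and 280.0 CPM in KO, against 183.2, 204.8 and 223.1 CPM in WT. These groups did not overlap, and the log2 difference was 0.46 ± 0.08 (adjusted p = 0.0606). Duoxa1, a maturation factor for a hydrogen peroxide-forming oxidase, averaged 2.52 ± 0.237 CPM in KO and 0.771 ± 0.508 CPM in WT (log2 difference 1.88 ± 0.36, adjusted p = 0.0769). Tyro3, a receptor kinase that recognises dying cells, averaged 103.9 ± 4.27 CPM in KO and 143.3 ± 4.67 CPM in WT (log2 difference -0.47 ± 0.10, adjusted p = 0.16). Spred1, the ERK pathway inhibitor that is the nearest listed gene to Rasgrp1 at 0.0977 Mb, was not near the threshold. Spred1 averaged 135.2 ± 4.62 CPM in KO and 153.8 ± 1.27 CPM in WT (log2 difference -0.19 ± 0.10, unadjusted p = 0.0879, adjusted p = 1). Sirpa, a receptor for CD47 at 12.2 Mb, had a log2 difference of 0.73 ± 0.14 (adjusted p = 0.0872). A KO allele carries the chromosome around it, and differences that come from flanking sequence cannot be told apart here from differences that come from the loss of RasGRP1.

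**Figure D3:**
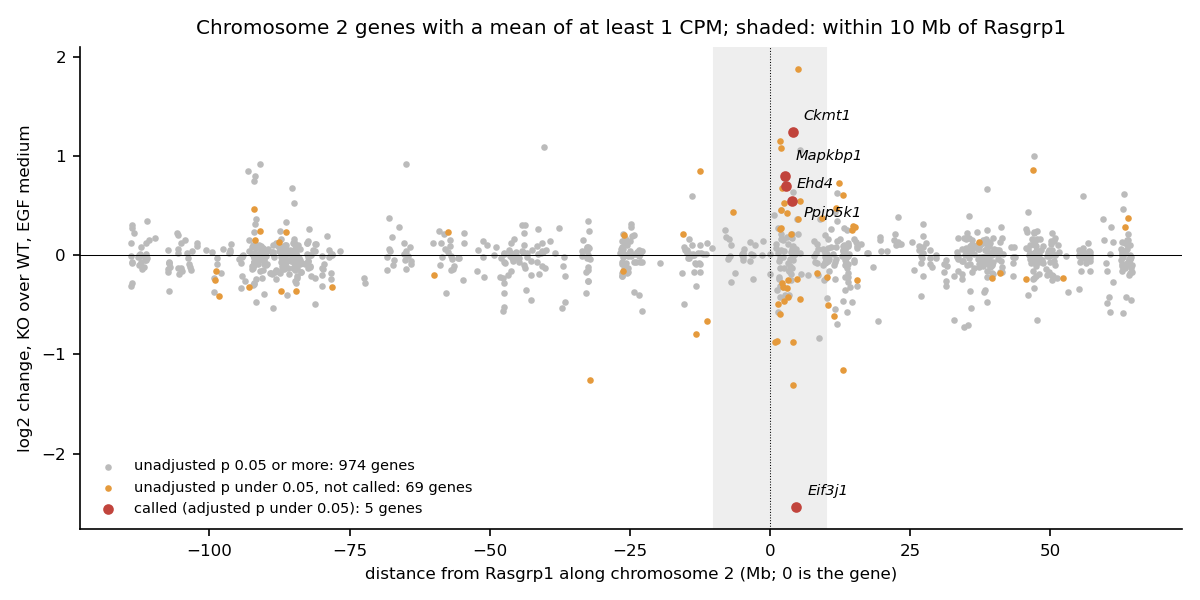
Log2 difference of KO over WT in EGF medium (vertical axis) against distance from Rasgrp1 along chromosome 2 in Mb (horizontal axis), for 1048 genes with a mean of at least 1 CPM. Red points are called, orange points had an unadjusted p under 0.05, and the shaded band spans 10 Mb to each side. The 5 called genes all lie in the band, on the side of higher coordinates, and orange points, 69 in all, lie above and below 0, both in and beside the band and farther along the chromosome.

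Away from Rasgrp1, Ide and Wdfy1 were the called genes that fell. Ide, on chromosome 19, encodes the insulin-degrading enzyme, and a duplication that holds Ide and its neighbour Fgfbp3 has been described in some C57BL/6J colonies. It had 121.7, 110.9 and 112.5 CPM in KO, against 261.7, 250.3 and 260.2 CPM in WT. The libraries of each genotype were tightly grouped and far apart, with a log2 difference of -1.16 ± 0.06 (adjusted p = 1.18e-08), the smallest p of the comparison. Fgfbp3, which encodes a protein that binds fibroblast growth factors, had 1.40, 1.55 and 3.06 CPM in KO, against 4.85, 5.47 and 6.91 CPM in WT. These groups did not overlap either, but the log2 difference of -1.55 ± 0.32 did not pass (adjusted p = 0.14). Between these 2 genes on the chromosome, Btaf1 had a log2 difference of -0.41 ± 0.10 (adjusted p = 0.441) and Cpeb3 one of 0.16 ± 0.23.

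Wdfy1, on chromosome 1, encodes an endosomal adaptor protein of Toll-like receptor signalling. It had 18.1, 20.5 and 12.7 CPM in KO, against 64.4, 55.0 and 36.0 CPM in WT (log2 difference -1.59 ± 0.15, adjusted p = 2.68e-05). Each KO library was below each WT library, and both genotypes were lowest in batch 3. Without the replicate block its adjusted p was 0.228. Ide, Wdfy1 and Fgfbp3 belong to a list of 11 genes known to differ between C57BL/6 substrains or colonies, of which 6 were measured. All 6 had negative log2 differences, 2 were called (0.0702% over all tested genes), and the median was -0.86 against -0.01 over all tested genes. The list was chosen with earlier results of these data known, so these values are a description and not a test. The labels give the strain of both genotypes as C57BL/6 without a substrain, so colony and genotype cannot be told apart.

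The remaining called genes away from Rasgrp1 rose in KO, and 4 of the 5 were copies of genes on chromosome 2. Such copies arise when a messenger RNA is copied back into the genome, and a short read that falls in both the copy and its source can be assigned to either by a difference of a base. Pcna-ps2 is a processed pseudogene of Pcna, the sliding clamp of DNA replication. Gm18234 is a processed pseudogene most like Zfp106, an RNA-binding zinc finger gene, and Gm7658 is one of Eif3m, which encodes another eIF3 subunit. The source genes lie 14.9, 3.16 and 12.3 Mb from Rasgrp1. Stretches of 50 bases, the length of the reads, are shown for each copy and its source, and no reads were examined. The stretches were picked for the fewest differences among those that differ, and do not stand for the whole length of the copies. They are from GENCODE transcripts of GRCm38, in lower case on the strand of the gene, with capitals where the copy and the source differ.
Pcna-ps2, chr19:9283478-9283527, plus strand: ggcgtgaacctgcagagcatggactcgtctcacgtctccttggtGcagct
Pcna, chr2:132252888-132252937, minus strand: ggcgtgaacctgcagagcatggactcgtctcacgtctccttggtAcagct
Gm18234, chr16:27844363-27844412, minus strand: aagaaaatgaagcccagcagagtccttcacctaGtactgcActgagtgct
Zfp106, chr2:120531958-120532007, minus strand: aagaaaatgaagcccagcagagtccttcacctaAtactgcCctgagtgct
Gm7658, chr1:21512962-21513011, minus strand: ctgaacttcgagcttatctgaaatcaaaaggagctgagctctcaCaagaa
Eif3m, chr2:105014849-105014898, minus strand: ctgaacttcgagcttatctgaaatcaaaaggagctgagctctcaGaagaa

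Over their aligned lengths, Pcna-ps2 matched Pcna at 99.23% of bases (775 of 781), Gm7658 matched Eif3m at 98.58% (1108 of 1124), and Gm18234 matched Zfp106 at 90.92% (931 of 1024). Of the 50-base words of each copy, 63.8% of those of Pcna-ps2, 42.8% of those of Gm7658 and 0.998% of those of Gm18234 occur unchanged in the source. The values of Pcna-ps2 and Gm7658 are therefore uncertain. Pcna-ps2 had 113, 137 and 149 counts in KO, against 1, 6 and 8 counts in WT (log2 difference 5.01 ± 0.64, adjusted p = 0.00105). Gm18234 had 37, 65 and 67 counts in KO, against no counts in any WT library. Set against a floor of 3 counts over the WT group, it was at least 65.4-fold higher in KO (adjusted p = 0.00133). Gm7658 had 24, 65 and 55 counts in KO, against 4, 3 and 4 counts in WT (log2 difference 3.78 ± 0.53, adjusted p = 0.00243). Its call was lost without WT_EGF replicate 2 (adjusted p = 0.0506). All 3 copies were separated completely between genotypes and had few counts in the WT libraries.

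The sources of these copies were not called by edgeR. Pcna averaged 54.5 ± 14.5 CPM in KO and 54.1 ± 3.03 CPM in WT, a log2 difference of -0.05 ± 0.15, and the sum of Pcna and Pcna-ps2 overlapped between genotypes. Eif3m had a log2 difference of 0.02 ± 0.08. Zfp106 had 270.4, 268.1 and 271.6 CPM in KO, against 302.1, 317.0 and 343.6 CPM in WT, a log2 difference of -0.25 ± 0.06 that did not pass edgeR's test (adjusted p = 0.441). DESeq2 called Zfp106 as lower in KO (adjusted p = 0.0356), and its adjusted p in the authors' deposited table was 0.0198.

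Eif3j2, on chromosome 18, was the fourth copy. Of its 50-base words, 90.8% also occur in Eif3j1, which lies 4.69 Mb from Rasgrp1. Eif3j2 had 64, 70 and 109 counts in KO, against 5, 4 and 4 counts in WT (log2 difference 4.39 ± 0.40, adjusted p = 2.68e-05). Eif3j1, described above, differed in the opposite direction. The sum of both genes was 2.92, 4.08 and 4.23 CPM in KO, against 3.04, 4.31 and 3.24 CPM in WT. These sums overlapped, with means of 3.74 ± 0.713 CPM in KO and 3.53 ± 0.685 CPM in WT.

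The comparison was extended to all tested processed pseudogenes outside chromosome 2 whose most similar gene could be found. Of 6 tested ones whose source lay within 20 Mb of Rasgrp1, 5 (83.3%) had an unadjusted p under 0.05, all higher in KO, and 3 were called. Of 395 whose source lay elsewhere, 4 (1.01%) had an unadjusted p under 0.05 and 0 were called by edgeR. The other 3 of the 6 were Gm6257 (log2 difference 5.70 ± 1.37, adjusted p = 0.278), Gm14829 (4.91 ± 1.83, adjusted p = 1) and Gm20056 (1.75 ± 1.56, adjusted p = 1), and they are most like Dnajc17, Zfyve19 and Chp1. This grouping was made after the values were seen and is a description. Gm18234, which had no WT counts in any medium, could pass the count filter only through KO libraries. Pcna-ps2 and Gm7658 were under the filter's 10 counts in every WT_EGF library. Copies with few WT counts are tested only if other libraries have enough. The share and direction above are therefore set at least in part by the filter, and their contrast with the other copies is no test. How reads were divided between copy and source was not tested.

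Dynlt1b, on chromosome 17, was the called rise away from Rasgrp1 with no source gene on chromosome 2. It encodes a light chain of the dynein motor and belongs to a cluster of near-identical genes. It had 23.3, 24.8 and 19.8 CPM in KO, against 9.49, 10.4 and 12.2 CPM in WT (log2 difference 1.09 ± 0.15, adjusted p = 0.00243). Of its 50-base words, 76.3% occur in Dynlt1c, so its count is uncertain as well. Dynlt1a and Dynlt1f, the other members tested, had log2 differences of 0.33 ± 0.27 and -0.17 ± 0.24. The sum of Dynlt1a, Dynlt1b and Dynlt1f, which leaves out Dynlt1c, stayed apart between genotypes, at 30.5 ± 1.89 CPM in KO and 18.2 ± 2.13 CPM in WT. Tmem181b-ps, annotated near Dynlt1b at chr17:6438524-6467022, had a log2 difference of 1.23 ± 0.30. It was not called by edgeR (adjusted p = 0.413), while DESeq2 called it (adjusted p = 0.017).

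The genes called in EGF medium differed in the same direction when Wnt and Rspo2 were added to EGF or took its place. In ERW medium 14 genes were called between KO and WT (0.0819%), and in RW medium 14 genes (0.0819%). Of the 12 genes called in EGF medium, 11 were also called in ERW, 11 in RW and 10 in both, and all 12 had the same direction and no overlap between genotypes in every medium. Of all tested genes, 4.3% had no overlap between genotypes in EGF, 4.34% in ERW and 4.12% in RW. All 7 called genes away from Rasgrp1 were called in all 3 media. No gene passed the test of a difference in the KO effect between media. For EGF against ERW the count was 0 by edgeR, with 306 genes at an unadjusted p under 0.05 (1.79%), and for EGF against RW it was 0, with 356 (2.08%). DESeq2 also called 0 genes in each. Comparisons in 1 medium contrast their own KO and WT libraries, but all share the 3 batches and the common estimate of spread.

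Among the 12 genes called in EGF medium, Ckmt1 had the smallest p for a difference between media. It averaged 159.8 ± 13.8 CPM in KO and 68.1 ± 13.8 CPM in WT in EGF medium. In ERW medium it averaged 189.9 ± 36.7 CPM in KO and 106.0 ± 26.6 CPM in WT (log2 difference 0.85, adjusted p = 0.0018). In RW medium it averaged 186.9 ± 17.9 CPM in KO and 137.0 ± 25.9 CPM in WT (log2 difference 0.47, adjusted p = 0.42). The KO effect in EGF medium minus that in RW medium was 0.78 ± 0.16 on the log2 scale, with an unadjusted p of 1.59e-04 and an adjusted p of 1.

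**Figure D4:**
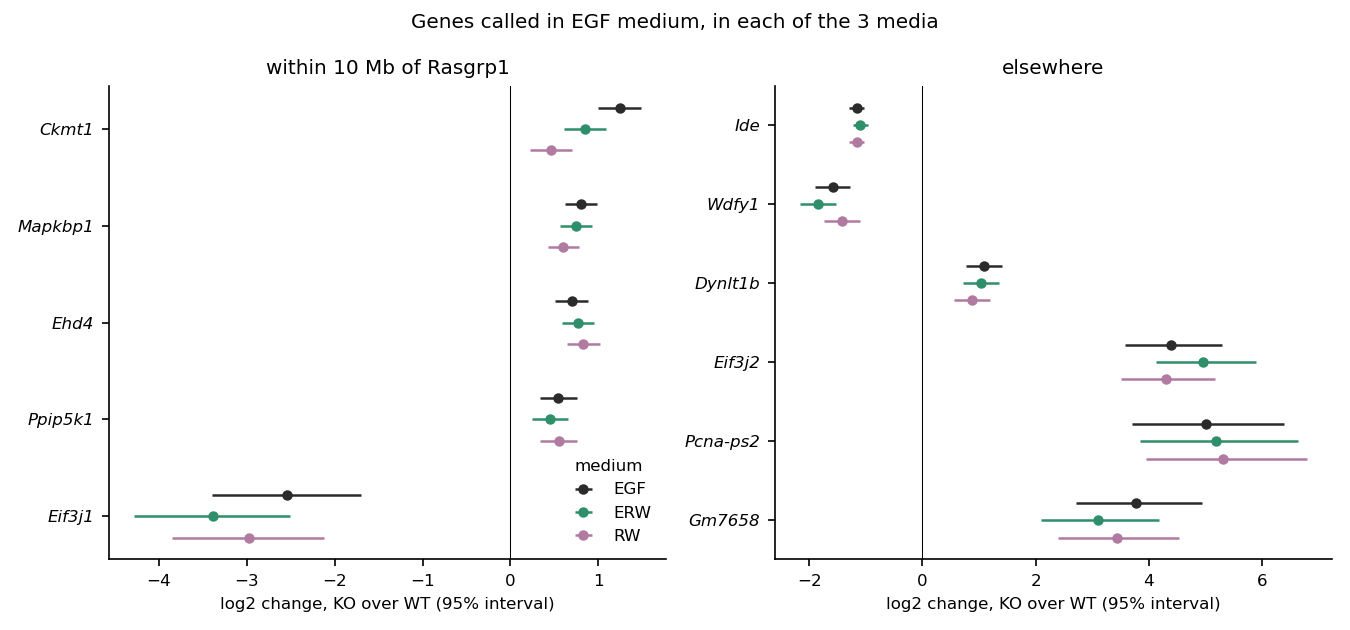
Log2 difference of KO over WT (horizontal axis) with its 95% interval for 11 of the 12 genes called in EGF medium, in EGF, ERW and RW medium, with genes within 10 Mb of Rasgrp1 on the left and the others on the right. Gm18234 is left out because no WT library had counts. Each gene keeps its side of 0 in all 3 media, and Ckmt1 shows the widest spread between media for its error, from 1.24 in EGF to 0.47 in RW.

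The EGF receptor pathway was next read along its steps, with lists of genes for each. Together the 30 lists used in this and the following paragraphs held 538 genes, of which 504 were measured and 2, Ide and Wdfy1, were called. Among ligands, receptors and feedback inhibitors of the receptor, 0 of 22 measured genes were called by edgeR and 0 had an unadjusted p under 0.05, and the median log2 difference was 0.02 against -0.01 over all tested genes. The receptor gene Egfr had 158.2, 201.3 and 151.9 CPM in KO, against 154.1, 156.2 and 165.1 CPM in WT. The groups overlapped, and the log2 difference of 0.09 ± 0.10 had a 95% interval of -0.12 to 0.31. Erbb2 and Erbb3, its partners, had log2 differences of -0.20 ± 0.12 and -0.01 ± 0.08. Areg, which encodes the ligand amphiregulin, averaged 31.8 ± 1.48 CPM in KO and 38.9 ± 9.14 CPM in WT (log2 difference -0.31 ± 0.29). Lrig1 and Errfi1, inhibitors of the receptor, had log2 differences of 0.29 ± 0.16 and 0.53 ± 0.42. The genes named from lists with no call are those of highest level in their list, and others were chosen after their values were seen.

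Among Ras proteins, exchange factors and GTPase activators, 0 of 21 measured genes were called and 1 had an unadjusted p under 0.05. This was Rras2, a Ras relative (log2 difference 0.27 ± 0.11, unadjusted p = 0.029, adjusted p = 1). Hras had a log2 difference of -0.01 and Nras one of -0.08. Dab2ip and Rasa1, which switch Ras off by promoting GTP hydrolysis, had log2 differences of 0.05 ± 0.06 and 0.02 ± 0.07. Among kinases and scaffolds of the RAF, MEK and ERK cascade, 0 of 16 were called and 3 had an unadjusted p under 0.05, with a list median of 0.05. They included the docking protein gene Gab1, with a log2 difference of 0.36 ± 0.16, and Rps6ka3, which encodes an ERK-activated kinase, with -0.21. Both had an adjusted p of 1. Mapk3, which encodes ERK1, averaged 297.5 ± 12.3 CPM in KO and 309.2 ± 11.2 CPM in WT (log2 difference -0.06 ± 0.07).

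Downstream, 0 of 30 measured ERK-responsive genes were called by edgeR, 0 had an unadjusted p under 0.05, and the list median was 0.03. Egr1, an immediate early transcription factor, averaged 1659 ± 570 CPM in KO and 2071 ± 442 CPM in WT (log2 difference -0.29 ± 0.32). Fos and Junb had log2 differences of -0.27 ± 0.37 and 0.16 ± 0.18. Dusp6, the ERK phosphatase that serves as a readout of ERK activity, had 307.1, 648.8 and 287.7 CPM in KO, against 349.1, 421.1 and 229.0 CPM in WT. The groups overlapped, batch 2 was the highest in both, and the 95% interval of the log2 difference ran from -0.83 to 1.28. Etv4 and Etv5, transcription factors induced through ERK, had log2 differences of 0.02 ± 0.22 and -0.05 ± 0.23. The median standard error over this list was 0.25 on the log2 scale, above the 0.11 of genes with at least 10 CPM. A call by edgeR needed a change several times its error, and Duoxa1, at 1.88 ± 0.36, was not called (adjusted p = 0.0769). Changes well above 0.25 could therefore go uncalled in this list with 3 libraries a group.

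Among genes of the mammary lineages no gene was called by edgeR. Of 20 basal and myoepithelial markers, 17 luminal markers, 13 hormone-sensing markers, 17 luminal progenitor markers and 20 proposed stem cell markers, 0 were called by edgeR. At an unadjusted p under 0.05 there were 0, 1, 1, 0 and 1 genes in these lists. The luminal one was Spint1, described above, which DESeq2 called (adjusted p = 0.00307). Their median log2 differences were -0.03, 0.08, 0.05, 0.06 and -0.02 in the same order. The basal keratin gene Krt5 averaged 1290 ± 167 CPM in KO and 1415 ± 214 CPM in WT (log2 difference -0.16 ± 0.17), and the luminal keratin gene Krt18 had a log2 difference of 0.23 ± 0.13. Lcn2, a luminal progenitor gene, had one of 0.04 ± 0.09. Prlr, the prolactin receptor of hormone-sensing cells, had one of -0.07, and Cited1, another marker of these cells, one of -0.66 (unadjusted p = 0.025, adjusted p = 1). Among stem cell markers, Lgr5, a receptor for R-spondins, averaged 85.5 ± 12.5 CPM in KO and 80.3 ± 20.5 CPM in WT. Procr, which marks a basal cell population, averaged 6.85 ± 1.49 CPM in KO and 8.75 ± 2.23 CPM in WT. The gene with a low p in the stem list was Wnt6, at a mean of 0.241 CPM in KO and 0.687 CPM in WT. In bulk RNA, fewer cells of a type and less RNA per cell cannot be told apart.

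Lists for other programmes held 0 called genes by edgeR. These were Wnt targets (21 measured, 1 at an unadjusted p under 0.05), Notch genes (17, 0), DNA replication and mitosis (30, 0), cholesterol synthesis (20, 0), milk genes (15, 2), cornified envelope and squamous keratins (21, 2), p53 targets (19, 0), hypoxia and glycolysis (24, 0) and amino acid and unfolded protein response genes (20, 0). Inflammatory chemokines (23, 1), dissociation and heat-shock genes (18, 1), matrix genes (20, 0) and mitochondrially encoded genes (7, 0) had none either. Of the 20 matrix genes, 19 had negative log2 differences in EGF medium, with a median of -0.17, against 0.13 in ERW and 0.16 in RW medium. Their summed level in EGF medium was 12480, 7563 and 9298 CPM in KO, against 14130, 8508 and 9969 CPM in WT, lower in KO within each batch while the groups overlapped. The proliferation gene Mki67 averaged 219.9 ± 12 CPM in KO and 243.4 ± 34.9 CPM in WT (log2 difference -0.14 ± 0.16). Axin2, a target of Wnt signalling, had 1.73, 9.44 and 6.91 CPM in KO, against 4.48, 5.05 and 4.45 CPM in WT, and the KO libraries spread to both sides of the WT libraries. Muc15, a milk fat globule mucin gene 6.54 Mb from Rasgrp1, averaged 702.1 ± 8.64 CPM in KO and 526.0 ± 90.5 CPM in WT without overlap (log2 difference 0.44 ± 0.14, unadjusted p = 0.00712, adjusted p = 1). Cxcl2, a neutrophil chemokine gene, had 12.2, 33.7 and 23 CPM in KO, against 3.14, 17.8 and 5.66 CPM in WT. It was higher in KO in every batch while the groups overlapped (log2 difference 1.62 ± 0.39, adjusted p = 0.47), and DESeq2 called it (adjusted p = 0.00252).

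**Figure D5:**
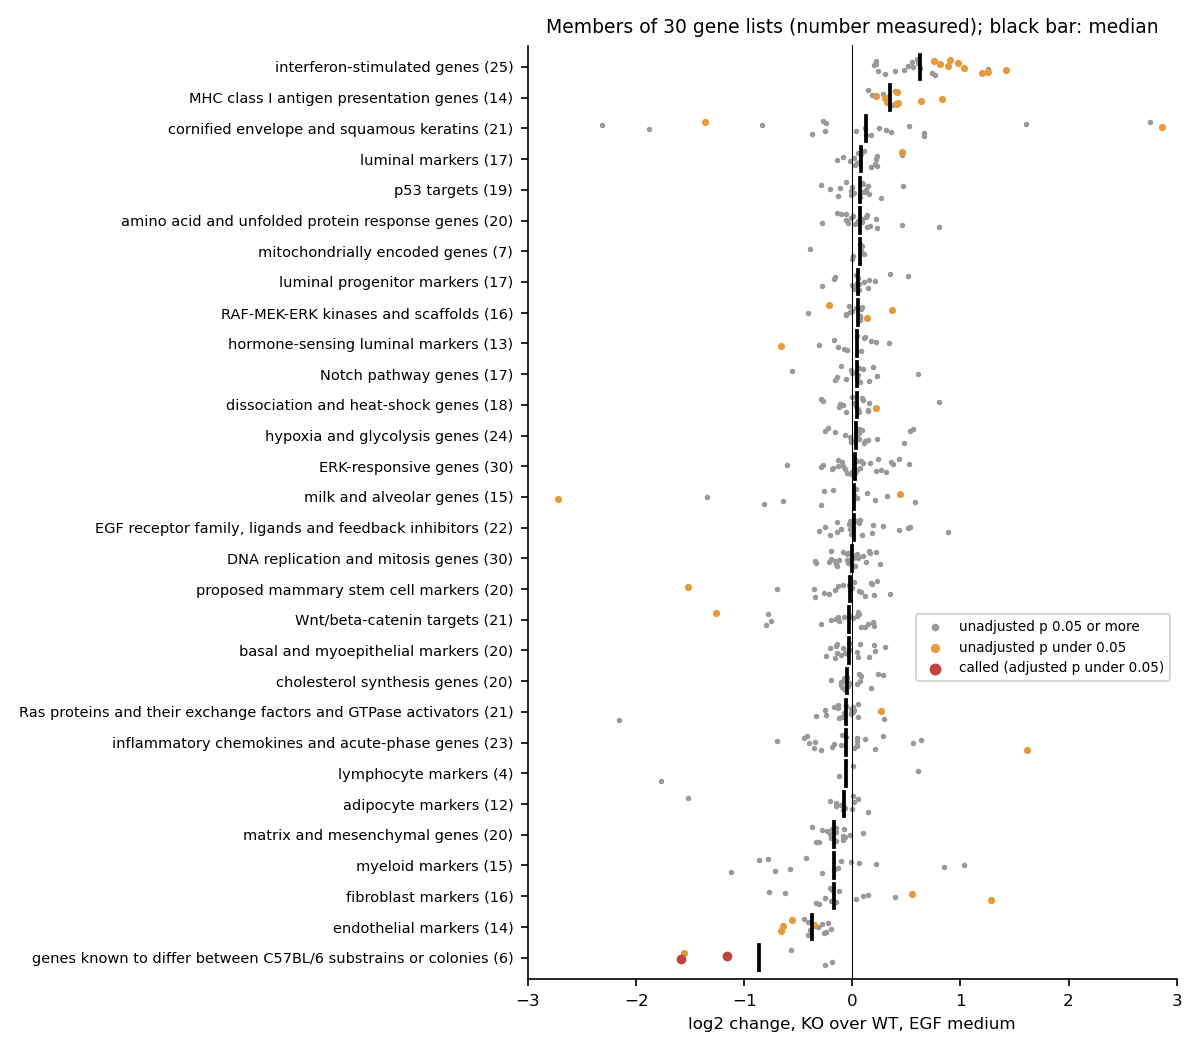
Log2 difference of KO over WT in EGF medium (horizontal axis) for the measured members of 30 gene lists (rows, with the number measured), ordered by the median, which a black bar marks. Grey points had an unadjusted p of 0.05 or more, orange points were under it, and red points were called. Most lists centre near 0, the interferon-stimulated and MHC class I lists lie to the right of it, and the endothelial and C57BL/6 colony lists lie to the left.

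Interferon-stimulated genes, the antiviral genes that interferon switches on, leaned towards KO without a call. All 25 measured genes had positive log2 differences, 9 had an unadjusted p under 0.05 (3.26% over all tested genes), and the median was 0.63. Their summed level was 657.4, 699.5 and 1725 CPM in KO, against 575.0, 596.7 and 677.6 CPM in WT, so that KO_EGF replicate 3 stood far above the other libraries. Irf7, the transcription factor that amplifies the interferon response, had 46.6, 63.9 and 235.6 CPM in KO, against 27.5, 40.3 and 48.1 CPM in WT (log2 difference 1.26 ± 0.41, unadjusted p = 0.0107, adjusted p = 1). Without KO_EGF replicate 3, 0 of the 25 genes had an unadjusted p under 0.05 by edgeR, the median was 0.27 and 24 had positive log2 differences. Without WT_EGF replicate 3 there were also 0, with a median of 0.34, and without WT_EGF replicate 2 there were 3. With batch 3 left out there was 1, the median was 0.17, and 19 genes were positive and 6 negative. In ERW medium 12 of these genes had an unadjusted p under 0.05, and in RW medium 14, all higher in KO. Of all tested genes, 4.14% were under that p in ERW (2.22% as higher in KO) and 5.2% in RW (2.93% as higher in KO). Both media share the batches of EGF medium, and the list was not counted there with batch 3 left out.

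MHC class I antigen presentation genes, many of which interferon also induces, leaned the same way. All 14 had positive log2 differences, 8 had an unadjusted p under 0.05 (3.26% over all tested genes), and the median was 0.35. The class I heavy chain gene H2-D1 averaged 782.6 ± 276 CPM in KO and 573.1 ± 114 CPM in WT (log2 difference 0.42 ± 0.13, unadjusted p = 0.00424, adjusted p = 1). B2m, the light chain, which lies 4.80 Mb from Rasgrp1, had a log2 difference of 0.37 ± 0.18. The summed level was 2952, 3164 and 5318 CPM in KO, against 2544, 2787 and 3471 CPM in WT. Without KO_EGF replicate 3, 2 of the 14 had an unadjusted p under 0.05 and the median was 0.21, and without WT_EGF replicate 3 there were 3. These leave-outs, like those for the interferon and endothelial lists, were chosen after seeing the data.

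Endothelial markers leaned the other way in EGF medium. All 14 had negative log2 differences, 4 had an unadjusted p under 0.05 (3.26% over all tested genes), 0 were called by edgeR, and the median was -0.37. Tek, the angiopoietin receptor gene, averaged 7.10 ± 0.884 CPM in KO and 11.2 ± 2.52 CPM in WT (log2 difference -0.66 ± 0.23, unadjusted p = 0.012, adjusted p = 1), and Pecam1, an adhesion gene of vessels, averaged 73.9 ± 14.2 CPM in KO and 98.4 ± 8.84 CPM in WT. The summed level of the list was 613.0, 490.9 and 476.1 CPM in KO, against 590.1, 663.6 and 745.6 CPM in WT. KO was thus higher in batch 1 and lower in batches 2 and 3. Without KO_EGF replicate 2 there were 0 genes at an unadjusted p under 0.05 by edgeR, without KO_EGF replicate 3 there were 2, and without WT_EGF replicate 3 there was 1. The median was -0.24 without KO_EGF replicate 2 and -0.13 without WT_EGF replicate 3, where 12 of the 14 genes stayed negative. In ERW and RW medium the medians were 0.27 and 0.34, on the KO side. At an unadjusted p under 0.05 there were 0 of these genes in ERW and 3 in RW, all higher in KO (2.93% over all tested genes in RW).

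Summed markers of fibroblasts, adipocytes, myeloid cells and lymphocytes overlapped between genotypes when batches were pooled. Summed fibroblast markers were 5435, 3439 and 4556 CPM in KO, against 7023, 3665 and 4829 CPM in WT, lower in KO within each of the 3 batches. Of 16 fibroblast markers, 10 had negative log2 differences, the median was -0.17, and the 2 genes at an unadjusted p under 0.05 were both higher in KO. The medians of fibroblast markers in ERW and RW medium were 0.20 and 0.14. Summed adipocyte markers were 1372, 1341 and 467.5 CPM in KO, against 873.3, 1508 and 700.3 CPM in WT. Summed myeloid markers were 74.7, 23.7 and 55.2 CPM in KO, against 29.3, 22.1 and 178.6 CPM in WT, and the pan-leukocyte gene Ptprc was under 2 CPM in all 6 libraries. The 4 measured lymphocyte markers summed to 5.73, 2.32 and 4.67 CPM in KO, against 4.18, 3.86 and 9.82 CPM in WT. None of the genes in the adipocyte, myeloid and lymphocyte lists had an unadjusted p under 0.05 by edgeR. The part of these cells in the differences above was not tested.

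The authors' deposited table, whose fold changes run WT over KO, gave 58 genes with an adjusted p under 0.05 of 27399 with one in EGF medium. It put 17 of the 58 on chromosome 2, and 41 had negative values, which means higher in KO. All 12 genes called by edgeR (100%) were among them, and these are 20.7% of the 58. Ide had the smallest adjusted p in the authors' deposited table, 2.25e-83, with a log2 of 1.16 for WT over KO. Spint1, Fgfbp3 and Cxcl2, which edgeR did not call, had adjusted p of 0.00335, 0.00335 and 0.00418 in the authors' deposited table.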

How the data were processed

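RNA from mammary organoids (100 ng of total RNA per library) was sequenced as single-end reads of 50 bases, per the labels' protocols. The deposited table holds raw counts per Ensembl gene, made with STAR on GRCm38 per the submitters' processing notes; neither those notes nor the labels give the STAR version, annotation release, counting tool or strand setting. Reads from overlapping genes on opposite strands therefore cannot be told apart. The authors' deposited table of comparisons gives log2 fold changes, p-values and adjusted p-values, from DESeq2 per the submitters' processing notes, and was used only where named.

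Counts were tested with edgeR 4.0.16 (R 4.3.3): TMM normalization, genes with at least 10 counts in a group's worth of libraries and 15 in all, robust quasi-likelihood fit over all 18 libraries with 6 groups and batch, two-sided tests and Benjamini-Hochberg adjustment over 17092 genes. A gene was called at an adjusted p under 0.05. CPM use TMM-scaled library sizes. DESeq2 1.42.0, other normalizations and filters, fits without the block and leaving out libraries were the alternatives. The fit was tested on simulated data with known changes.

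The labels give each library's batch, which is its replicate number, so KO and WT libraries of 1 number are paired. Deviations from group means of same-numbered KO and WT libraries correlated at 0.74, 0.66 and 0.60 over 9914 genes with at least 10 CPM. Those of differently numbered libraries correlated negatively. Deviations from a group mean cancel out within the group, so positive same-number correlations bring negative others on average.

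Sources of gene copies were found as the gene that shares most 30-base words of its transcripts with the copy, with at least 10 shared, in the GENCODE transcripts of GRCm38. Printed sequences were read from the same transcripts.

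Named genes were, by rule, Rasgrp1 and its expressed family, called genes with a mean of at least 1 CPM and 1 direction in all batches (up to 14 each way elsewhere and 12 near Rasgrp1, leaving out predicted genes and pseudogenes), and per list up to 4 called genes or, with none called, the 3 of highest level. Pseudogenes and other genes were chosen after their values were seen. The members and lists were chosen with earlier results of these data known.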

Additional observations from a re-analysis of the deposited data

How the results depend on the processing

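Ide, Eif3j2 and Ckmt1 kept their calls under all 16 alternatives run for them, and none of the 12 called genes changed direction under them. Precision is limited by 3 libraries a group and, for Rasgrp1 and the copies, by counts near 0. The 12 calls in EGF medium were 7 away from Rasgrp1 and 5 within 10 Mb. Without the replicate block these were 6 and 2, with 6 genes in ERW, 5 in RW and 1 in the lists, and 2 interferon-stimulated, 0 MHC class I and 0 endothelial genes were under an unadjusted p of 0.05 by edgeR. With only the compared libraries in the fit and the block kept, they were 4 and 3, with 23 in ERW and 1 in RW. DESeq2 called 19 and 15, with 30 in ERW, 28 in RW and 5 in the lists (Ide, Wdfy1, Fgfbp3, Spint1 and Cxcl2). With no filter on low counts 8 genes within 10 Mb were called. Leaving out 1 library or 1 batch gave 3 to 8 calls away from Rasgrp1, 1 to 5 within 10 Mb, 4 to 12 in ERW and 3 to 13 in RW, and a log2 difference of Rasgrp1 of -3.98 to -1.48. The fewest in EGF medium came with batch 3 left out (3 away) and with batch 1 left out (1 within 10 Mb). Calls were lost by Ppip5k1 in 11 of the 16 alternatives, by Eif3j1 in 9, by Gm7658 in 5, by Dynlt1b in 4, by Ehd4 and Gm18234 in 3, by Pcna-ps2 in 2, and by Wdfy1 (no block) and Mapkbp1 (batch 1 left out, adjusted p = 0.0603) in 1. Tests of a difference between media gave 0 calls under each alternative run. The cause of these shifts was not tested.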
